A study of Mus musculus with 2 samples.

Results

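The immunoglobulin heavy chain variable genes (Ighv genes) were followed in single cells of mouse colon tumour tissue. The members were chosen by their own counts, as all genes whose symbol begins with Ighv and that had at least 1 unique molecular identifier (UMI, a tag counted once for each captured RNA molecule) in either library. Of 183 Ighv genes listed among 55357 genes, 101 met this rule and 82 were at 0. In the library labelled KO 75 members were detected, in that labelled WT 83, and in both 57. At the edge of the rule stood 19 members with exactly 1 UMI over both libraries, while 17 held 2 to 9 UMIs and 65 held at least 10. The study asked how the secreted matrix protein Ecm1 bears on the immune cells of colorectal tumours, with neutrophils as its subject, and it has 2 libraries, 1 per genotype. The library labelled KO came from animals whose Ecm1 alleles were floxed and which carried a Villin-driven Cre recombinase, active in intestinal epithelium and not in B lineage cells. The library labelled WT came from animals with the same floxed alleles and no Cre, so both carry the floxed alleles. The sources used here do not give strain, age, tumour model, the exons between the loxP sites or how many animals went into each library.

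Each B cell assembles its heavy chain variable region by joining 1 V gene to a D and a J segment, and the choice of V gene sets much of the antigen binding site. A cell normally expresses the product of a single rearranged heavy chain allele, so its V gene marks the cell and all its descendants. Plasma cells are the antibody-secreting end stage of this lineage, and those of the gut mostly make immunoglobulin A (IgA), whose constant region is encoded by Igha and whose polymers are held together by the J chain. A V gene used by many cells can reflect repeated use of that gene in separate cells or the expansion of a clone, and these cannot be told apart here without the junction sequence, which the count tables do not hold.

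The coding ends of 4 members are shown because the usage results below turn on them: Ighv4-1 took the most Ighv UMIs in the plasma cells of both libraries, Ighv10-1 was used in a single library, and Ighv1-81 and Ighv1-18 led the most cells of the libraries labelled WT and KO. Each run is the last 280 bases of the germline coding transcript, 5′ to 3′ on the coding strand, from GENCODE M21 on GRCm38, matched by gene identifier, and not the rearranged sequence of any cell. The capitals mark the letters TGTG in the last 20 bases, where the codon of the conserved cysteine that precedes the third hypervariable loop lies.
Ighv4-1: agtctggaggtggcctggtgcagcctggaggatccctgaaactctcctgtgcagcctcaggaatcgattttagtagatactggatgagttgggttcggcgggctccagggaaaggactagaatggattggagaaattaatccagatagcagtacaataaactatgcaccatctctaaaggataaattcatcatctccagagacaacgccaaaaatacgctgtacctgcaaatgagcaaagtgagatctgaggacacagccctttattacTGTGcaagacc
Ighv10-1: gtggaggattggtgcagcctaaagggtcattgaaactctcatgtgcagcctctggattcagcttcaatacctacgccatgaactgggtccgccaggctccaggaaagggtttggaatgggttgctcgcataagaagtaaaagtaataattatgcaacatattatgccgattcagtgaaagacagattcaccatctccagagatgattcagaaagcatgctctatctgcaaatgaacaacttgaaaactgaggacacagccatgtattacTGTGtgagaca
Ighv1-81: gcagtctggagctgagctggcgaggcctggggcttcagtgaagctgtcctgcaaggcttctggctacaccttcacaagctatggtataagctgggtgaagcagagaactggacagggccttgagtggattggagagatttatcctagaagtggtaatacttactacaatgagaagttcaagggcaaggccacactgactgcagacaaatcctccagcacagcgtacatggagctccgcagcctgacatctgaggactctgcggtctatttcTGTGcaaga
Ighv1-18: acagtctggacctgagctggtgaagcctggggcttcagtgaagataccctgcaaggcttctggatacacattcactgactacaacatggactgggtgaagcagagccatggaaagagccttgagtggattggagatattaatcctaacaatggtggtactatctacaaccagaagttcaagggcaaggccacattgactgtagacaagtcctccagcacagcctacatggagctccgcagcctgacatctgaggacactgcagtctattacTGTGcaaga
Of the 88 members annotated as coding V genes, 75 (85.2%) held TGTG in these last 20 bases, searched on the coding strand alone. Over the other windows of 20 bases in the same 280 bases it was found in 43 of 1144 (3.76%).

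The libraries stood apart in ways that touch these results. The 4896 barcodes of the library labelled KO held 75024663 UMIs and the 9512 of that labelled WT 59189995, with medians of 7950 and 2706 per barcode. After filters on genes, mitochondrial share and doublets, 4233 and 8262 cells remained. Ecm1 was not lower in epithelial-gate cells of the library labelled KO (40.99 CPM, the UMIs scaled to a total of 1e6, 95% interval 39.3 to 42.7) than in those of the library labelled WT (34.04 CPM, 31.9 to 36.3). The sex genes also separated them: Xist had 103646 and 7 UMIs, and Ddx3y 0 and 6175. By these counts the library labelled KO was female and that labelled WT male, so sex and genotype label cannot be told apart in any comparison below. Between the libraries 17 barcodes recurred, none of them a plasma cell in both. With 1 library per genotype, no difference below has a replicate check. Intervals are exact, at 95%, and cover counting error only.

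Plasma cells were taken as cells with at least 20 UMIs of Jchain, Mzb1 and Xbp1 together per 10000 UMIs. They numbered 213 in the library labelled KO, 5.03% of its cells (4.39 to 5.73), and 175 in that labelled WT, 2.12% (1.82 to 2.45), a ratio of 2.38. The ratio was 1.26 with the gate at 10, 1.46 with the gate at 500 and 1.83 without cells in another marker gate (2.76% and 1.51%). Their median depth was 10254 and 9100 UMIs. Igha UMIs were present in 96.2% and 85.1% of them, while Mzb1, a plasma cell chaperone in the gate itself, was seen in only 7.98% and 14.9%. Markers of other cells were present among them. The summed level of 10 epithelial markers was 3957 CPM in the library labelled KO and 497 CPM in that labelled WT, with all 10 at least 2-fold higher in the former, as were 26.6% of the 11219 genes with at least 10 summed UMIs, and 81 and 4 of the cells also passed the epithelial gate. For 7 neutrophil markers the summed levels were 383 and 7339 CPM, with all 7 at least 2-fold lower in the library labelled KO, as were 8.87% of those genes, and 13 and 36 cells passed the neutrophil gate. For 8 monocyte and macrophage markers they were 207 and 82.3 CPM, with 34 and 5 cells in that gate. These markers were mixed in direction: 5 were at least 2-fold higher in the library labelled KO and 1, Ccr2, at least 2-fold lower. Over all genes these shares were the 26.6% and 8.87% given above. Sdc1, a surface proteoglycan of plasma cells, was seen in 65.7% and 54.9% of the cells. Values without the cells in another of these gates or the T gate are given below beside the results that were recomputed that way.

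Nearly all Ighv UMIs came from the plasma cells. They held 2658 of 2942 Ighv UMIs (90.3%) in the library labelled KO and 8045 of 8443 (95.3%) in that labelled WT. A plasma cell held a median of 4 Ighv UMIs in the former and 15 in the latter, and 63 and 43 cells held none. A cell was assigned to a leading Ighv gene where that gene had at least 3 UMIs and at least 50% of the cell's Ighv UMIs. By this rule 117 cells, 54.9% (48.0 to 61.7), of the library labelled KO and 124 cells, 70.9% (63.5 to 77.5), of that labelled WT were assigned. Without cells in another marker gate the shares were 86.3% and 88%, so most of the gap between the libraries was absent. The cells left out held little heavy chain RNA of any kind, with a median of 40.5 and 1 heavy constant UMIs against 1418 and 1044.5 in assigned cells.

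The assigned share followed the gate level. Among cells at 20 to 50 gate UMIs per 10000, 0 of 23 and 0 of 36 had a leading gene. The plasma cell label fitted these cells poorly: 14 of the 36 in the library labelled WT had an Igha UMI and 25 passed the neutrophil gate, while of the 23 in that labelled KO 18 had an Igha UMI and 13 passed the epithelial gate. At 50 to 200 these were 9 of 56 in the library labelled KO and 1 of 5 in that labelled WT, and at 200 to 500 they were 31 of 53 and 25 of 26. From 500 up, 77 of 81 (95.1%) and 98 of 108 (90.7%) were assigned, so that the order of the libraries turned. The epithelial gate was passed by 38 of the 56 cells at 50 to 200 and 28 of the 53 at 200 to 500 in the library labelled KO, but by 2 of its 81 cells from 500 up. Just inside the gate, at 20 to 25, lay 7 and 25 cells, and just outside, at 15 to 20, lay 35 and 69, none of them with a leading gene.

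**Figure D1:**
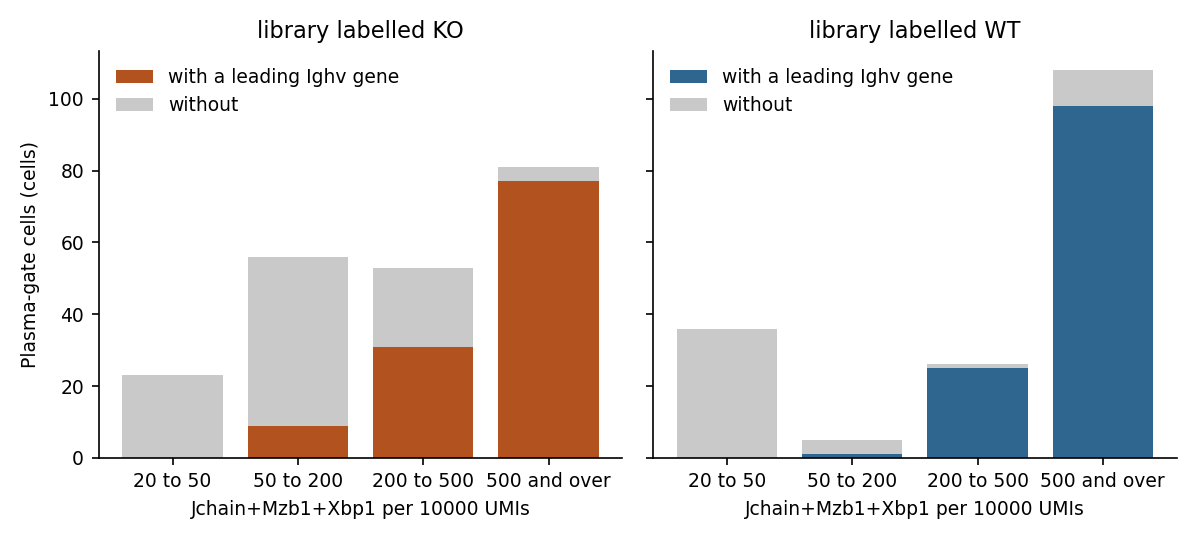
Plasma-gate cells by the summed Jchain, Mzb1 and Xbp1 level per 10000 UMIs (horizontal axis, 4 ranges), with the number of cells on the vertical axis, coloured where the cell had a leading Ighv gene and grey where not. No cell of the lowest range was assigned in either library, and 77 of 81 and 98 of 108 cells of the highest range were.

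Assigned cells mostly held a single V gene. All Ighv UMIs belonged to the leading gene in 82 of 117 cells (70.1%) of the library labelled KO and in 85 of 124 (68.5%) of that labelled WT. A second gene with at least 3 UMIs was seen in 12 and 8 cells. Ighv1-53 and Ighv1-55 were such a pair in 4 cells of the library labelled KO against 5 of that labelled WT. Their coding ends are shown because they are 94.6% identical, with 15 of 280 bases differing, marked here as capitals.
Ighv1-53: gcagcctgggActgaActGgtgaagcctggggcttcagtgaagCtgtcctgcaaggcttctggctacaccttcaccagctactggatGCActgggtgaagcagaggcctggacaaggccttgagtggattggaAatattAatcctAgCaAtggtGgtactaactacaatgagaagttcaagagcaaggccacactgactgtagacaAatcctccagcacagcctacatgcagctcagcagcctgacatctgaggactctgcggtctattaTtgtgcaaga
Ighv1-55: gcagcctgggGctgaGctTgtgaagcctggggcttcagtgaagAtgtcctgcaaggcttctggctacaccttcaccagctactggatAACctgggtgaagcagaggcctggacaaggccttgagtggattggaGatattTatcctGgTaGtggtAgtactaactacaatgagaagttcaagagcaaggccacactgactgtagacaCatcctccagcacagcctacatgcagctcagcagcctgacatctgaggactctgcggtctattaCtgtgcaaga
Over the 12 pairs of genes that shared a cell in this way the median identity was 92.9%, from 62.1% to 99.3%, against 65.4% over all 5050 pairs of members. The latter counts every pair once, within and between families, and is not weighted by usage, so it is no matched baseline. No 2 members were identical over these 280 bases, but 56 had another listed Ighv gene at 95% identity or more. Counts of single members in such groups are uncertain, since reads from a mutated or partly covered copy could be given to its neighbour.

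The usage of V genes was broad in both libraries. In the library labelled KO 54 members led at least 1 cell and in that labelled WT 48, of which 37 led cells in both, 68.5% of the former and 77.1% of the latter. Most led few cells: 27 and 24 members led exactly 1, 18 and 16 led 2 or 3, and 9 and 8 led at least 4. No cell was led by any of the 13 members annotated as pseudogenes, which together had 7 and 19 UMIs. Beside these, 23 coding members led no cell, and none of the 36 members that led none held more than 12 UMIs over both libraries.

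Ighv1-81, of the large Ighv1 family, was among the leading genes of both libraries. It led 7 cells of the library labelled KO, 5.98% (2.44 to 11.9), and 13 of that labelled WT, 10.5% (5.70 to 17.3). Its UMIs per cell ran from 4 to 19 in the former and from 7 to 162 in the latter. Ighv1-18 led 9 cells (7.69%, 3.58 to 14.1) of the library labelled KO against 4 (3.23%, 0.886 to 8.05) of that labelled WT. The 9 cells held 3, 3, 3, 3, 5, 6, 7, 10 and 16 UMIs of it and the 4 cells 12, 25, 49 and 60, so the cells of the library labelled KO lay low, with a single one above the lowest of the other library. With 10 UMIs as the minimum, Ighv1-18 did not lead the most cells of the library labelled KO. There all 8 cells led by Ighv1-19 held at least 14 UMIs of it. At the minimum of 3 UMIs, the intervals of the libraries overlapped for both Ighv1-81 and Ighv1-18. Ighv1-53 led 4 and 4 cells, Ighv1-64 3 and 3, Ighv5-6 3 and 3, Ighv1-9 4 and 3, Ighv1-85 3 and 2, and Ighv1-82 4 and 2.

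Several genes led cells mainly in the library labelled WT. Those given here and next were picked for the gap in their cell counts, so the gaps are a description. Ighv10-1, of a small family, led 12 of its cells, 9.68% (5.10 to 16.3), and had 0 UMIs in any barcode of the library labelled KO (0 of 117 cells, 0 to 3.10%). These 12 cells held 6, 6, 12, 13, 19, 19, 34, 41, 55, 69, 72 and 181 UMIs of it, a wide range within which every cell had Igha as its main heavy constant gene. Ighv1-55 led 1 cell of the library labelled KO (0.855%, 0.0216 to 4.67) and 8 of that labelled WT (6.45%, 2.83 to 12.3), while Ighv1-26 led 1 and 7 and Ighv3-6 led 1 and 6. Those intervals overlapped and those of Ighv10-1 did not, but these genes were picked for their gaps, so this is no test. The intervals also treat cells as separate draws, while 11 of the 12 Ighv10-1 cells shared Igkv6-17 and Igha. Ighv3-5 and Ighv3-8 led 3 cells each in the library labelled WT, and Ighv2-2, Ighv5-9-1 and Ighv1-62-3 led 2 each. None of them led a cell in the other library, where only Ighv1-62-3 had any UMI (5 in plasma cells). Some gaps fell among close copies. Ighv1-26 is 97.1% identical to Ighv1-18 (9 and 4 cells) and 96.1% to Ighv1-19 (8 and 0), whose gaps ran the other way. Ighv1-62-3 is 99.3% identical to Ighv1-72, which led 1 and 0 cells, and Ighv1-55 belongs to the pair that shared cells. Ighv10-3, 96.4% identical to Ighv10-1, likewise had 0 UMIs in the library labelled KO. Whether reads were given to the wrong copy was not tested.

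Other genes led cells of the library labelled KO and none of the other. Ighv1-19 led 8 of its cells, 6.84% (2.998 to 13.03), with 14, 16, 17, 20, 24, 26, 43 and 58 UMIs. The plasma cells of the library labelled WT held 1 UMI of it (0 of 124 cells, 0 to 2.93%). The intervals did not overlap, but the gene was picked for its gap, so this is no test. Of its 8 cells, 7 shared Igkv1-110 and Igha. Ighv7-3 led 5 cells, with 3, 3, 5, 20 and 48 UMIs, and Ighv7-1 led 3, with 13, 21 and 107. In plasma cells of the library labelled WT these had 0 and 1 UMI. Ighv1-66, Ighv1-75 and Ighv8-8 led 2 cells each and had no UMI in plasma cells of the library labelled WT. Ighv2-9, Ighv1-54 and Ighv8-5 tied with them at 2 and 0 cells, on fewer UMIs, and had 1, 2 and 0 UMIs in those plasma cells. Ighv14-4 and Ighv5-17 led 4 cells each in the library labelled KO and 1 each in that labelled WT. Some cells were alike in other counts. The Ighv7-3 cells with 3, 3 and 5 UMIs held 588, 634 and 633 heavy constant UMIs and 5020, 5320 and 4688 of Igkc. A pair of Ighv14-4 cells held 3874 and 3766 Igkc UMIs, with Igha at 65.7% and 57.8% of heavy constant UMIs. Whether these were separate cells was not tested.

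**Figure D2:**
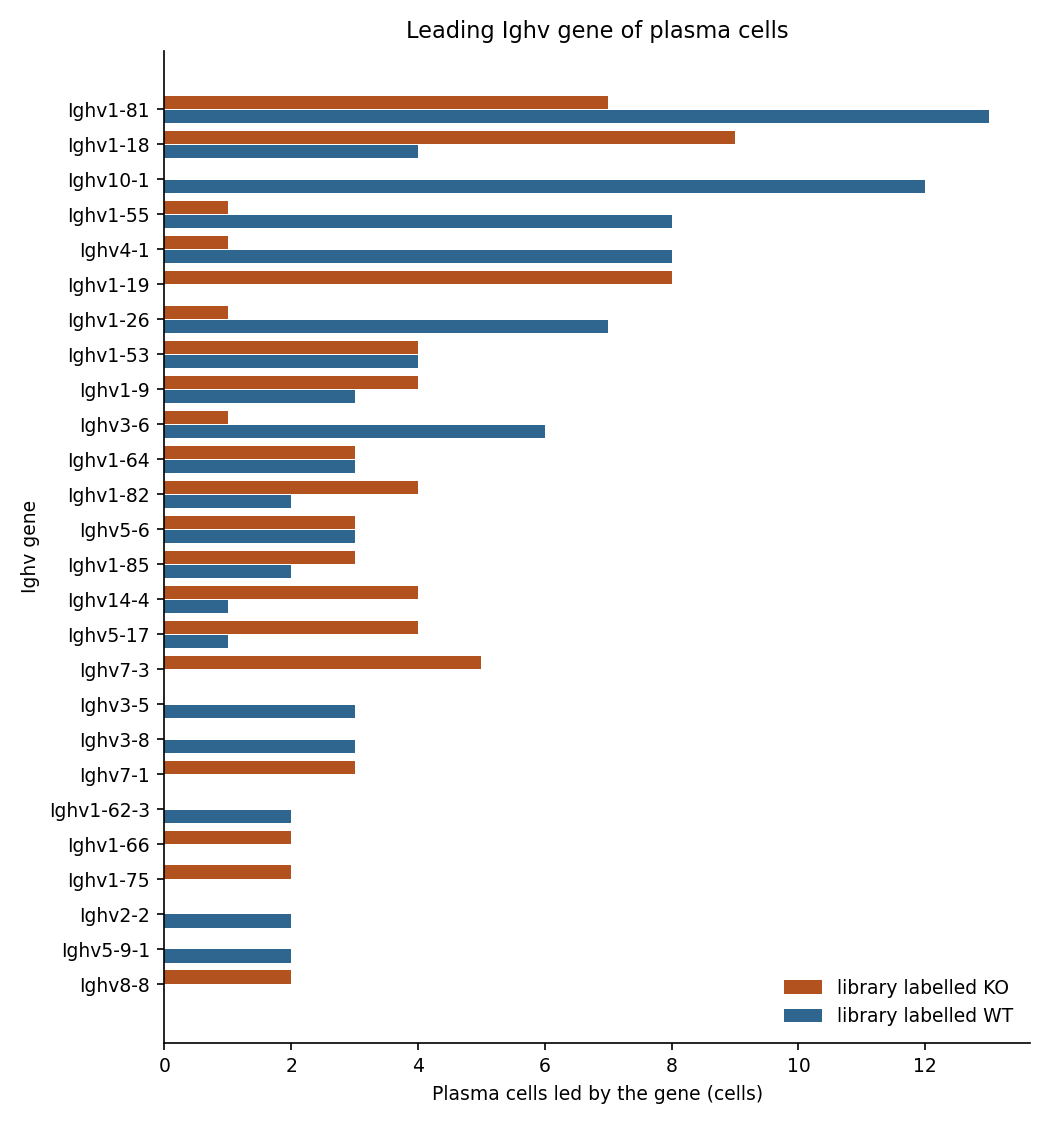
Number of plasma cells led by each named Ighv gene (horizontal axis, cells) in each library, by colour, with genes ordered by the sum of both. Ighv1-81 had 7 and 13 cells and Ighv1-18 had 9 and 4, whereas Ighv10-1 had 0 and 12 and Ighv1-19 had 8 and 0.

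By family, Ighv1 held the most cells in both libraries. It led 76 of 117 cells (65.0%, 55.6 to 73.5), through 32 members, in the library labelled KO and 67 of 124 (54.0%, 44.9 to 63.0), through 25, in that labelled WT. The Ighv5 family led 9 and 10 cells, Ighv14 5 and 3, Ighv2 5 and 4, and Ighv6 3 and 4. Ighv7 led 8 cells (6.84%, 2.998 to 13.03), among them the Ighv7-3 cells with alike counts, in the library labelled KO against 0 (0 to 2.93%) in that labelled WT. The reverse held for Ighv10, with 0 (0 to 3.10%) and 13 cells (10.5%, 5.70 to 17.3), and Ighv3 led 2 and 13, Ighv4 1 and 8, and Ighv8 5 and 1. Families Ighv12, Ighv15 and Ighv16 had no member, and the single detected gene of Ighv11 and of Ighv13 led no cell.

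Leading genes lay along the whole locus. With the 183 listed genes ordered from the side of the D segments, by the GENCODE M21 annotation, and divided into 4 nearly equal parts, the part nearest to D led 19 cells of the library labelled KO (16.2%, 10.1 to 24.2) and 24 of that labelled WT (19.4%, 12.8 to 27.4). The following parts led 26 and 39 cells, then 31 and 22, and the most distant part led 41 (35.0%, 26.5 to 44.4) and 39 (31.5%, 23.4 to 40.4). The intervals of the libraries overlapped in all 4 parts. The parts hold 29, 29, 24 and 31 coding genes, of which Ighv1-81 sits in the most distant and Ighv4-1 in the nearest.

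**Figure D3:**
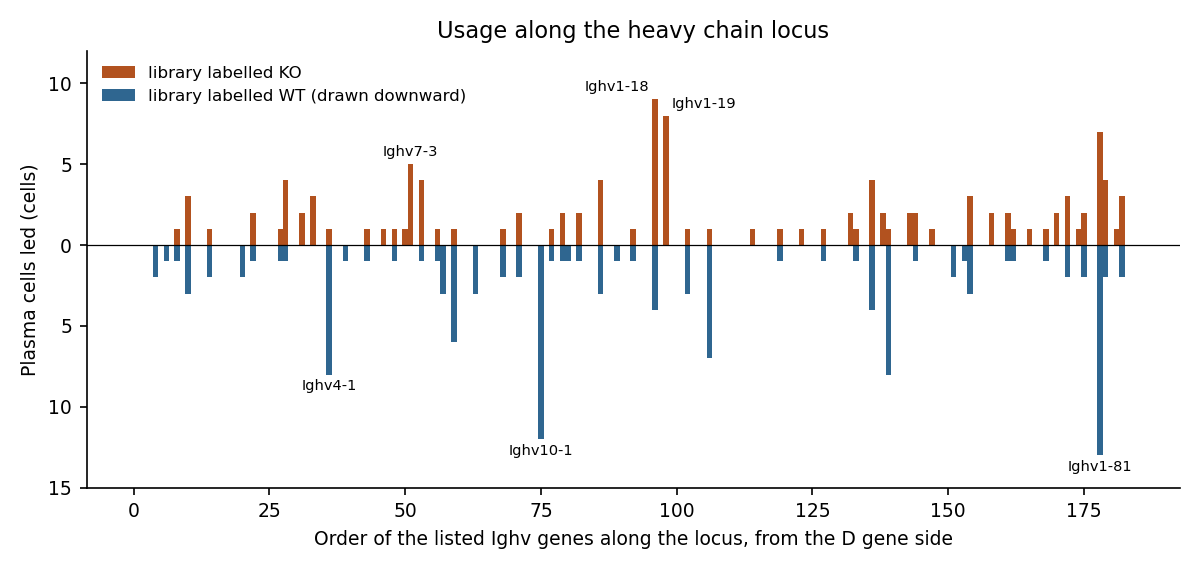
Number of plasma cells led by each member (vertical axis, cells) at its order among the listed Ighv genes along the locus, counted from the D gene side (horizontal axis), with the library labelled KO drawn upward and that labelled WT downward. Both libraries have leading genes over the whole order, and the tallest bars are Ighv1-18 (9 cells) upward and Ighv1-81 (13 cells) downward.

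Evenness of usage was high in both libraries when cells were counted. Pielou's evenness, the entropy of the cell counts divided by its highest possible value for the genes used, was 0.936 in the library labelled KO against 0.900 in that labelled WT. No interval is given for evenness, so the difference of 0.0357 is not shown to exceed counting error. Counting each combination of Ighv gene, light chain V gene and heavy class once gave an evenness of 0.971 and 0.944. This is a difference of 0.0265 in place of 0.0357. There the light chain V gene was the leading one of the kappa and lambda genes together, as planned. Iglv1 then led in 107 of 115 assigned kappa cells of the library labelled KO and in 92 of 109 of that labelled WT. For most kappa cells these combinations thus left out the kappa V gene. Taking the light chain V gene from the cell's own light chain class, a choice made after seeing the data, gave 0.959 and 0.946. The difference was then 0.0130. The effective number of genes, the number of equally used genes with the same entropy, was 41.8 and 32.6, and the inverse Simpson index, which weights common genes more, was 32.4 and 22.7. Of all pairs of assigned cells, 2.25% and 3.62% shared their leading gene. At 117 cells from each library the expected number of leading genes was 54.0 and 46.6. The 5 most used genes led 28.2% and 38.7% of the cells. Without barcodes in another marker gate the evenness was 0.947 and 0.908 and the effective number 42.2 and 31.7. With 1 UMI as the minimum for a leading gene the evenness was 0.898 and 0.900, so the order of the libraries turned. Ighv1-18 then led the most cells of the library labelled KO, 17 of 150, and Ighv10-1 the most of that labelled WT, 14 of 132.

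The distance between the libraries was wider when UMIs were counted in place of cells. Evenness over the Ighv UMIs of plasma cells was 0.858 in the library labelled KO against 0.598 in that labelled WT, and the effective number was 37.4 and 12.9. The 5 genes richest in UMIs held 32.4% and 67.2%. Ighv4-1 was the richest in both, with 247 of 2658 UMIs (9.29%) and 3355 of 8045 (41.7%).

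**Figure D4:**
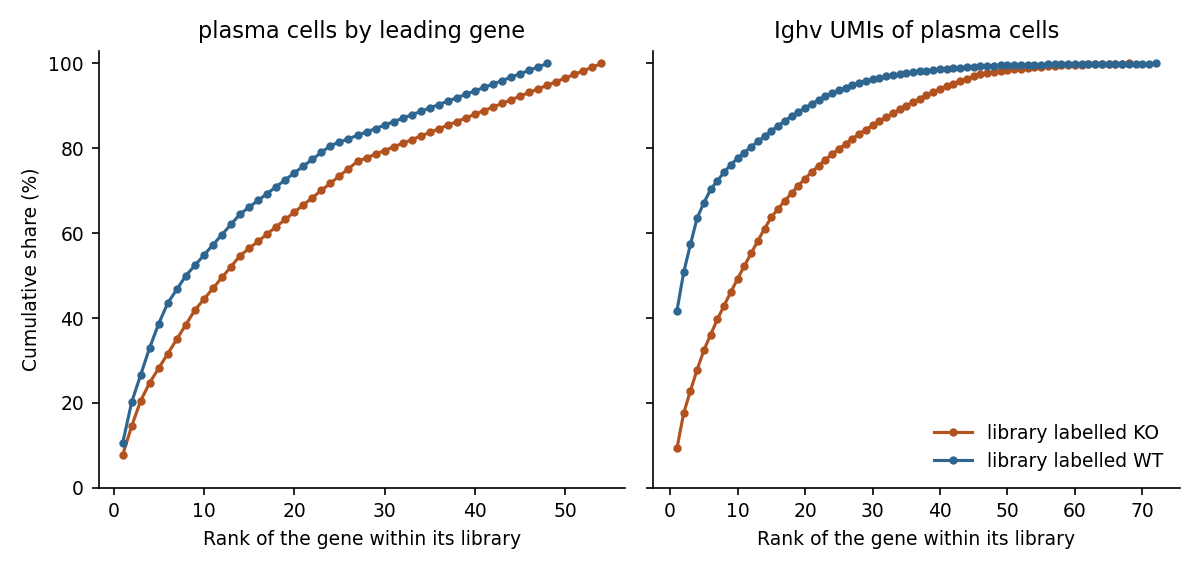
Cumulative share (vertical axis, %) of plasma cells by leading gene (left) and of Ighv UMIs of plasma cells (right) over genes ranked within each library (horizontal axis). By cells the 5 most used genes reach 28.2% and 38.7% in the libraries labelled KO and WT, and by UMIs the 5 richest reach 32.4% and 67.2%.

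Ighv4-1 owed its UMI share to few cells. A single cell held all 247 of its UMIs in plasma cells of the library labelled KO. In that labelled WT it led 8 cells (6.45%, 2.83 to 12.3), with 84, 141, 368, 396, 409, 426, 673 and 857 UMIs. Against the heavy constant UMIs of the same cell these 8 held 10.4 to 50.7 Ighv4-1 UMIs per 100, and the cell of the library labelled KO held 12.99. Over all assigned cells other than those led by Ighv4-1 the median was 1.15 per 100 in the library labelled KO, up to 10.1, and 2.44 in that labelled WT, up to 43.1. Richest in UMIs among these were the 2 Ighv1-78 cells of the library labelled WT, with 360 and 368 UMIs and 43.1 and 17.9 per 100, a gene named after its values were seen. The 2 Ighv1-78 cells of the library labelled KO held 14 and 34 UMIs, or 0.486 and 2.70 per 100. Ighv10-1, with 12 cells in the library labelled WT, held 531 UMIs in its plasma cells, fewer than the 3355 of Ighv4-1 with 8 cells.

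**Figure D5:**
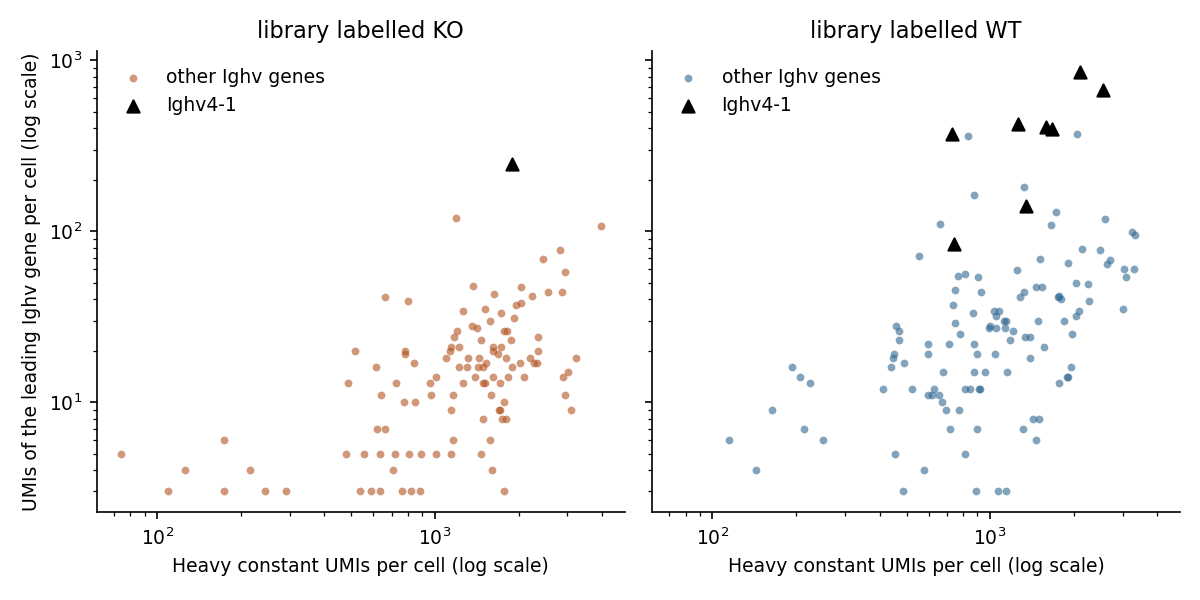
UMIs of the leading Ighv gene (vertical axis, log scale) against heavy constant UMIs of the same cell (horizontal axis, log scale) for each assigned plasma cell, with cells led by Ighv4-1 as black triangles. The 8 Ighv4-1 cells of the library labelled WT lie between 84 and 857 UMIs and the one of the library labelled KO at 247.

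The library labelled WT had more variable region UMIs for its constant region UMIs. Per 100 heavy constant UMIs of plasma cells there were 1.48 Ighv UMIs in the library labelled KO against 5.20 in that labelled WT, and 1.34 and 3.03 without Ighv4-1. The kappa light chain genes, which are separate genes on another chromosome, stood in the same order, with 0.781 and 2.16 Igkv UMIs per 100 of Igkc. As a part of all plasma cell UMIs, the Ighv genes held 937 CPM and 5213 CPM. Fewer V region UMIs and a lower share of the V region captured cannot be told apart here, since the capture chemistry is not stated.

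Nearly all assigned cells were of IgA. The gate that chose the plasma cells rests mainly on Jchain, whose product holds IgA polymers together. Its UMIs were 136840 and 98116, against 3185 and 2134 of Xbp1 and 20 and 32 of Mzb1. Whether the gate favoured IgA cells was not tested. Igha was the main heavy constant gene in 113 of 117 cells of the library labelled KO and 115 of 124 of that labelled WT. Ighg2b was the main gene in 3 and 1, Ighg2c in 1 and 5, Ighg1 in 0 and 2 and Ighm in 0 and 1. The lambda light chain exceeded kappa in 2 and 15 cells, and 8 of those 15 were the Ighv4-1 cells.

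Pairing each cell's leading Ighv gene with its light chain V gene and heavy class gave combinations, some of which recurred. A light chain V gene could be given to 110 and 121 of the assigned cells, which held 92 and 84 combinations. Those seen in at least 2 cells numbered 12 in the library labelled KO, holding 30 cells (27.3%, 19.2 to 36.6), and 16 in that labelled WT, holding 53 cells (43.8%, 34.8 to 53.1). Of the former, Ighv7-3 with Igkv16-104 and Ighv14-4 with Igkv8-24 rested on the cells with alike counts given above. The commonest in the library labelled KO was Ighv1-19 with Igkv1-110 and Igha, in 7 cells. In the library labelled WT it was Ighv10-1 with Igkv6-17 and Igha, in 11 of the 12 Ighv10-1 cells, followed by Ighv4-1 with Iglv1 and Igha in all 8 Ighv4-1 cells and Ighv1-81 with Igkv1-110 and Igha in 7. The Ighv1-81 and Igkv1-110 pair was also seen in 3 cells of the library labelled KO, and in 2 Ighg2c cells of that labelled WT. Other frequent genes were spread over partners: the 7 Ighv1-26 cells of the library labelled WT had 6 light chain V genes and the 7 Ighv1-81 cells of the library labelled KO had 5. The libraries shared 9 combinations. Over all kappa plasma cells, assigned to an Ighv gene or not, Igkv1-110 was the most used kappa gene in both, leading 22 and 20 cells.

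Outside the plasma gate no cell of either library had a leading Ighv gene. T-gate cells, which express no assembled heavy chain, gave the background: 2.01% and 1.89% of cells with a UMI, at 5.46 and 6.26 CPM and a median depth of 3121 and 2384. In epithelial-gate cells, the deepest at medians of 19037 and 10204 UMIs, it was 5.86% and 2.85% of cells at 2.60 and 2.09 CPM. Unthinned, 70.4% (63.8 to 76.5) of plasma cells of the library labelled KO against 75.4% (68.4 to 81.6) of that labelled WT had an Ighv UMI. Thinned to 1000 UMIs per cell, which left out 16 and 13 cells, the shares were 48.2% (41.1 to 55.4) and 70.4% (62.7 to 77.3).

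Summed over plasma cells and scaled to CPM, 62 members had at least 10 UMIs over both libraries. Of these, 19 stood at least 2-fold above the library labelled WT in that labelled KO, as did 26.6% of 11219 genes, and 36 at least 2-fold below it, as did 8.87% of genes. The median log2 ratio was −1.67 over the members and 0.33 over all genes. Scaled instead to all Ighv UMIs of the library, which shifts every member by the same factor, 30 were higher and 14 lower, so the split depends on the scaling and says nothing about single members. These counts describe the values that also defined usage and are not a separate result.

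The genes that serve the V genes were taken from lists, and their counts past 2-fold stand against the 26.6% of all genes that were higher and the 8.87% that were lower. Of the V(D)J recombination and surrogate light chain genes Rag1, Rag2, Dntt, Vpreb1, Vpreb2 and Igll1, which assemble and test the heavy chain in precursors, only Vpreb1 had a UMI in plasma cells, 1 in the library labelled KO. Of 5 measured genes of class switching and somatic hypermutation, 2 were past 2-fold higher and 1 past 2-fold lower in the library labelled KO, all on few UMIs. The ratio of the uracil glycosylase Ung was 2.58 (0.859 to 10.4) from 19 and 4 UMIs and that of the polymerase Polh 0.476 (0.147 to 1.502) from 7 and 8, both with intervals that hold 1. The exonuclease Exo1 had 12 and 0 UMIs, and its ratio of 2.18 rests on the floor of 3 counts. Pigr, the epithelial receptor that carries polymeric IgA into the gut lumen, stood at 209 and 33.05 CPM (ratio 6.33, 4.75 to 8.59). Of 9 measured factors that act on V promoters and the heavy chain enhancers, 0 were at least 2-fold higher and 5 at least 2-fold lower in the library labelled KO. Among these, Pou2af1, the coactivator of octamer-driven V promoters, stood at 130 and 377 CPM (ratio 0.346, 0.303 to 0.395), and Irf4, a factor plasma cells require, at 75.4 and 178 CPM (0.423, 0.352 to 0.508). The plasma cell secretory programme had 0 of 22 genes higher and 4 lower, with Sdc1 at 176 and 154 CPM. Its list includes Jchain, Mzb1 and Xbp1, which define the gate. The 4 were Mzb1, Ell2, Irf4 and Pou2af1, of which Irf4 and Pou2af1 were already counted among the factors above. Of 6 measured heavy constant genes, Ighg2b was higher (2793 and 555 CPM) and Ighm, Ighg1 and Ighg2c were lower. Igha stood at 60073 and 92944 CPM, a ratio of 0.646 (0.642 to 0.651). Ighg2b, Ighm, Ighg1 and Ighg2c were each the main heavy constant gene of at most 5 assigned cells per library, so their sums rest on few cells. A single cell of the library labelled WT held 1537 of its 1782 Ighm UMIs. In that labelled KO 1 cell held 3949 heavy constant UMIs, 99.97% of them Ighg2b, against 7922 Ighg2b UMIs in all. Iglc1, Iglc2 and Iglc3 were at least 2-fold lower in the library labelled KO and Igkc was not (283204 and 291794 CPM). These lambda sums also rest on few cells. Lambda exceeded kappa in 2 and 15 assigned cells, and the 8 Ighv4-1 cells of the library labelled WT held 2033 to 7721 lambda constant UMIs each. The epithelial and neutrophil marker levels given above moved with these sums, and their part in them was not tested.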

How the data were processed

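Single-cell RNA sequencing counts of colon tumour tissue, 1 library per genotype, were analysed. Per the file headers, the authors made the matrices with Cell Ranger 7.2.0, and the deposited values are whole UMI counts per gene and barcode without normalization. The build was GRCm39, per the submitters' processing notes. The protocol in the labels describes bulk RNA extraction and a fragmented, random-primed library, so the capture chemistry and read position are not known, and both bear on how much of a V region is counted. Variable regions carry junctions and mutations, which can lower or misplace alignments. The aligner settings and annotation release are not given in the sources at hand.

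The minimum was 200 genes per barcode, and the mitochondrial share of UMIs had to be under 20%. Scrublet, run per library with seed 0, gave no working automatic threshold, so the barcodes with the top scores were taken out at a rate of 0.8% per 1000, 154 and 633 in all. No authors' annotation was used, and plasma cells were defined by the gate in the rule. Other gates used Cd3e, Cd3d and Cd3g (T, at least 5 UMIs per 10000), S100a8, S100a9 and Csf3r (neutrophil, 20), C1qa, C1qb, Csf1r and Cd68 (monocyte/macrophage, 10) and Epcam, Krt8, Krt18 and Cldn7 (epithelial, 20). A cell outside the plasma gate was counted in a gate if it passed no other, including a B cell gate that is not reported here.

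With 1 library per genotype there is no test across samples. Shares carry exact Clopper-Pearson 95% intervals and ratios exact conditional binomial 95% intervals. For folds, 0 UMIs in a library was replaced by a floor of 3 counts over the group. The light chain V gene was taken from the kappa genes where Igkc exceeded Iglc1 to Iglc3 and from the lambda genes otherwise, a choice made after seeing that Iglv1 UMIs were present in 174 of 206 and 110 of 142 kappa plasma cells. Identity was computed with Biopython 1.88 over the last 280 coding bases. Members, lists and named genes were chosen with earlier results of these data known. The genes named are the 12 members leading the most cells of each library, the 6 leading the most cells of 1 library and none of the other, in each direction, and those of the lists, with ties in cells settled by summed UMIs and the tied genes after these left out. Scripts used Python 3.11.15, numpy 2.4.6, scipy 1.17.1, pandas 2.3.3, scanpy 1.11.5 and matplotlib 3.10.9, and were tested on simulated data. Alternatives changed the gate, the doublet and cell filters, the rule for a leading gene, the weighting of cells and, for 2-fold counts, the scaling and minimum.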

Additional observations from a re-analysis of the deposited data

How the results depend on the processing

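Of 89 values recomputed under alternatives, 69 stayed within the counting interval of the reported value or, for counts of genes, within 1.5 times it, 16 moved further and 4 turned direction. Of the 69, 12 returned the reported value exactly, because the setting changed no cell that entered it, and show nothing about stability. For evenness and the effective number the interval was an approximate one, from the sampling variance of the entropy with cells as independent draws. It served this sorting only and is not reported. Values here are the library labelled KO over that labelled WT, except for evenness, where they are differences. The plasma cell share ratio of 2.38 was 1.26 with the gate at 10, 1.46 with the gate at 500 and 1.83 without barcodes in another marker gate. The assigned share ratio of 0.775 became 1.46 with the gate at 10 and 1.05 with the gate at 500. With a leading gene of at least 1 UMI, the evenness difference of 0.0357 became -0.00186 and the ratio for the most used gene, 0.734, became 1.07. Over UMIs the evenness difference was 0.260 and the effective number ratio, 1.28 over cells, was 2.90. The ratio of the Ighv share of plasma cell UMIs, 0.180, was 0.240 with the gate at 10, 0.266 at 500, 0.196 without doublet removal, 0.230 without barcodes in another marker gate and 0.280 without Ighv4-1. Members at least 2-fold higher numbered 30 and lower 14 when scaled to Ighv UMIs, against 19 and 36, and with at least 50 summed UMIs, which leaves 35 of 62 members, 6 were higher and 24 lower. Over all genes this minimum gave 1337 higher and 390 lower of 5857, and equal weight per cell gave 2059 lower, against 2985 and 995 of 11219. For these changes the cause was not tested, beyond fewer genes reaching the higher minimum. The gate at 500, the count without Ighv4-1 and the choice of light chain class were added after seeing the data. Leaving out a replicate was not possible. No paired analysis was possible because each genotype has 1 library. In 33 and 8 plasma cells there were Ighv UMIs but under 3 of the leading gene.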

Other observations

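The kappa light chain V genes gave a second view of the same plasma cells. The library labelled KO had 206 kappa plasma cells and that labelled WT 142, of which 124 and 112 had a leading Igkv gene by the same rule, spread over 45 and 41 genes. Evenness was 0.885 and 0.876 and the effective number of genes 29.1 and 25.8. Igkv1-110 led 22 cells (17.7%) and 20 cells (17.9%). The next most used genes were Igkv8-24 with 9 cells and Igkv1-117 with 8 in the library labelled KO, and Igkv6-17 with 12 and Igkv1-135 with 6 in that labelled WT. Of the 12 Igkv6-17 cells, 11 were assigned to Ighv10-1.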
